A study of Homo sapiens with 47 samples.

Results

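The 10 genes ITM2B, KDM6A, SEC63, SH3GLB1, DYNLT1, CTNNB1, BRIX1, UBE2D2, YLPM1 and EPC2 are places outside EZH2 where 2 different RNA-targeting Cas13 proteins, each with an EZH2 guide named EZH2g1, were listed at the same stretch of RNA. The sample labels give the guide by name only, so whether both proteins carried the same spacer is not known here. They were chosen by the measured positions themselves, because the EZH2g1 site lists of dPspCas13b and dRfxCas13d overlap there on the gene's strand, and they are 10 of 59679 RefSeq genes on the autosomes, X and Y. Of 59 dPspCas13b sites with EZH2g1, 40 overlapped a dRfxCas13d site with EZH2g1. Of these, 10 lay in the 10 genes, 2 in EZH2 and 28 elsewhere. The 10 are those with the longest shared stretch outside EZH2, so the overlap and its length describe the choice and are not a finding. At the edge of the choice stood EPC2 and UBE2D2, with 143 and 144 shared nt, and just outside it CEP120 and GPHN, with 143 and 142, so EPC2 and CEP120 tie in length.

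The assay, uSpyCLIP-seq, crosslinks a tagged protein to RNA with ultraviolet light, captures it through the covalent SpyTag and SpyCatcher bond and sequences the RNA fragments that stay attached. All libraries came from Lenti-X 293T, an established line of human embryonic kidney origin, stably expressing the protein profiled. The groups used here are dPspCas13b with EZH2g1, dRfxCas13d with EZH2g1, each protein with EZH2g2, and each protein expressed alone without guide, all crosslinked and with 3 libraries. These 6 groups are all that is meant below by Cas13 lists and Cas13 sites. They are set beside PTBP1 from 1000, 10000, 100000 and 10000000 cells and RBFOX2 from 10000000 cells, with 2 libraries each, and captures with SpyCatcher versions 1.0 and 2.0 at 20 and 40 µg, with 1 library each. Every group used here has 1 list of positions and strands on hg38, and carries no score or count per site. The depth behind a site is therefore unknown, no spread between replicates can be given and no p-value was computed. Site widths, places and counts below are therefore single values.

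Cas13 enzymes are CRISPR nucleases that find RNA by base pairing with the spacer of a guide RNA. The catalytically dead forms keep this binding and do not cut. The guide of Cas13b carries its direct repeat 3′ of the spacer and that of Cas13d carries it 5′, so even a shared target would be met by differently built complexes. EZH2, the gene targeted by EZH2g1, encodes the methyltransferase of Polycomb repressive complex 2. The spacer and the RNA sequence at the sites were not analysed here, so "off-target" below means only a listed site outside EZH2.

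In all 10 genes the narrower dPspCas13b site lay wholly inside the dRfxCas13d site. The dPspCas13b sites were 143 to 178 nt wide (median 152.5) and the dRfxCas13d sites 178 to 299 nt (median 217.5). For scale, the median width over the whole lists was 128 nt for dPspCas13b and 169 nt for dRfxCas13d. Because the genes were chosen by the longest shared stretch, wide sites and full nesting follow in part from the choice. The centres of the paired sites differed by 1 to 17 nt (median 7). Among the 28 other shared sites outside EZH2, 26 dPspCas13b sites lay inside the dRfxCas13d site and the centres differed by 1 to 98.5 nt (median 10). Along the RNA the dRfxCas13d site ran beyond the dPspCas13b site by 8 to 57 nt on the 5′ side (median 31.5) and by 10 to 75 nt on the 3′ side (median 44.5). The longer extension was on the 3′ side in 7 of the 10 genes, against 16 of the 28 other sites.

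**Figure D1:**
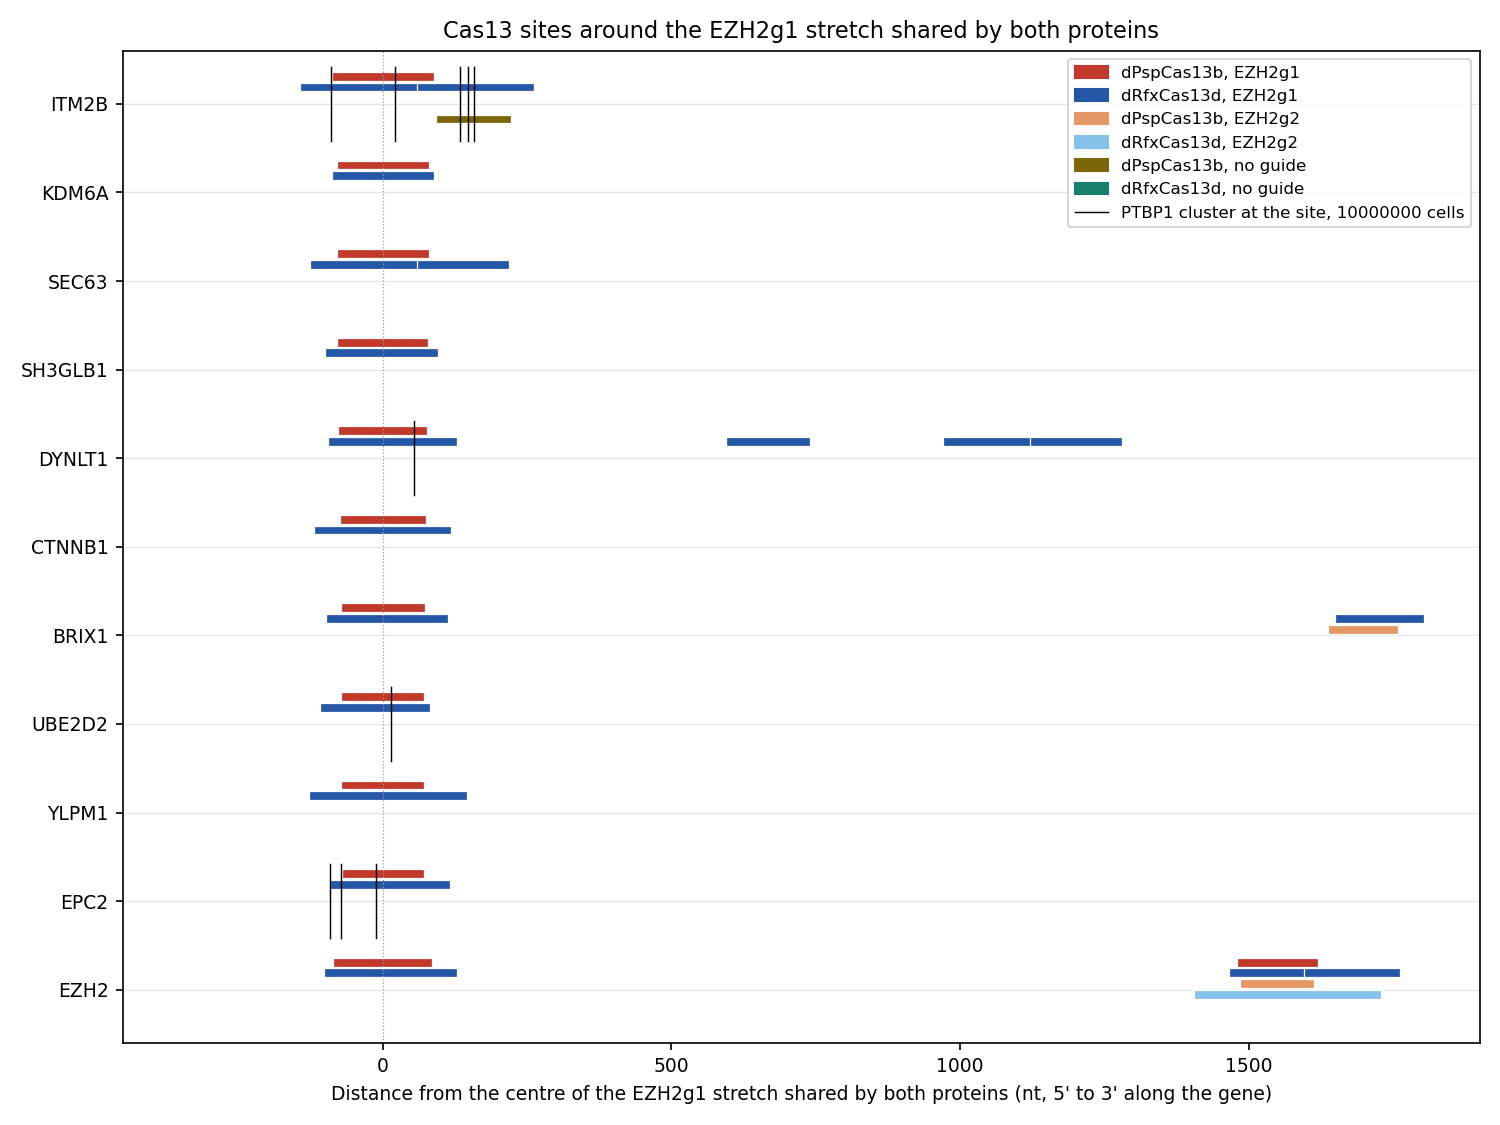
Each row is 1 gene, bars are listed Cas13 sites coloured by protein and guide, and the x axis is the distance in nt from the centre of the stretch that both proteins share with EZH2g1, 5′ to 3′ along the gene. White lines part overlapping sites of 1 list, black lines are PTBP1 clusters at the sites of the 10 genes, and EZH2 is drawn at the bottom for comparison. All 10 pairs are nested, and apart from EZH2g1 sites the only Cas13 bar that reaches a pair in the 10 genes is the dPspCas13b site without guide in ITM2B.

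Of the 10 genes, 7 held a site of another Cas13 list used here and 3 (KDM6A, EPC2 and YLPM1) did not. The share of all genes with a site in any of these lists was not computed, so the 7 cannot be read as a trait of the 10 genes. KDM6A, a histone demethylase that removes the repressive methyl mark laid by EZH2, lies on the plus strand of chromosome X from 44873188 to 45112779. Its dPspCas13b site ran from 45070063 to 45070222 and its dRfxCas13d site from 45070055 to 45070232, the smallest combined extension in the group, 8 nt on the 5′ side and 10 nt on the 3′ side. EPC2, an enhancer of Polycomb homolog, spans 148644751 to 148787569 of chromosome 2 on the plus strand. The EPC2 sites ran from 148771148 to 148771290 for dPspCas13b and from 148771128 to 148771336 for dRfxCas13d. EPC2 also held a dRfxCas13d site with EZH2g1 that dPspCas13b lacked, at 148691602 to 148691755, 79373 nt nearer the 5′ end. YLPM1, which encodes a nuclear protein that binds protein phosphatase 1, spans 74763316 to 74837318 of chromosome 14 on the plus strand. Its sites ran from 74797703 to 74797846 for dPspCas13b and from 74797646 to 74797921 for dRfxCas13d.

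ITM2B, SEC63 and SH3GLB1 encode proteins that act at membranes. ITM2B, which encodes the membrane protein BRI2, spans 48233206 to 48270357 of chromosome 13. Its dPspCas13b site ran from 48261494 to 48261671 and lay inside a dRfxCas13d site from 48261439 to 48261737. A further dRfxCas13d site with EZH2g1, from 48261641 to 48261844, shared 31 nt with the dPspCas13b site. In ITM2B a site of dPspCas13b without guide, from 48261675 to 48261805, began 4 nt past the end of the dPspCas13b site with EZH2g1. This no-guide site shared 63 nt with the wider dRfxCas13d site and lay wholly, over 131 nt, inside the further one. ITM2B was thus the only one of the 10 genes in which the paired sites touched a site of another Cas13 list, and they touched it outside the stretch both proteins share.

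SEC63, which works with the translocon that moves proteins into the endoplasmic reticulum, lies on the minus strand of chromosome 6, from 107867756 to 107958208. Its dPspCas13b site ran from 107871637 to 107871796 and its dRfxCas13d site from 107871577 to 107871842. A further dRfxCas13d site with EZH2g1, from 107871497 to 107871657, shared 21 nt with the dPspCas13b site on its 3′ side. SEC63 also had a dRfxCas13d site with EZH2g2 at 107893570 to 107893718 and 1 without guide at 107924807 to 107925000. Both lay 5′ of the paired sites, by 21728 and 52965 nt. SH3GLB1, the membrane-bending protein endophilin B1, spans 86704576 to 86748184 of chromosome 1 on the plus strand. Its dPspCas13b site ran from 86735032 to 86735189 and its dRfxCas13d site from 86735011 to 86735206. The only other Cas13 site in SH3GLB1 was that of dPspCas13b without guide at 86745685 to 86745812, 10479 nt nearer the 3′ end.

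CTNNB1, which encodes the adhesion and Wnt signalling protein beta-catenin, spans 41199505 to 41240443 of chromosome 3 on the plus strand. It stood apart from the rest by its sites without guide, with 11 of dPspCas13b and 7 of dRfxCas13d. These make up 18 of the 25 sites that lists other than the EZH2g1 lists had in the 10 genes. Of the no-guide sites in CTNNB1, 8 of the 11 of dPspCas13b and 2 of the 7 of dRfxCas13d lay in the last 2000 nt of the gene. Of these 8 dPspCas13b sites, all but that at 41239612 to 41239753 chained by overlap from 41239878 to 41240420. Merging left 5 dPspCas13b sites in the whole gene, so the 8 are not separate places. The share of all no-guide sites within 2000 nt of a 3′ end was not computed. With EZH2g1, dPspCas13b had its CTNNB1 site at 41227185 to 41227334 and dRfxCas13d at 41227140 to 41227377, away from all 18. The nearest no-guide sites lay on the 5′ side, 1951 nt away for dPspCas13b and 1541 nt away for dRfxCas13d. No list with EZH2g2 had a site in CTNNB1.

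UBE2D2, a ubiquitin-conjugating enzyme, spans 139526240 to 139628434 of chromosome 5 on the plus strand. Its dPspCas13b site ran from 139614840 to 139614983 and its dRfxCas13d site from 139614803 to 139614993. Its only other Cas13 site was that of dPspCas13b without guide at 139623365 to 139623476, 8372 nt nearer the 3′ end. BRIX1, a factor in the assembly of the large ribosomal subunit, spans 34915711 to 34925996 of chromosome 5 on the plus strand. Its dPspCas13b site ran from 34923082 to 34923227 and its dRfxCas13d site from 34923056 to 34923267. Both also lie within TTC23L, from 34839164 to 34925682 on the same strand, so the 2 transcripts cannot be told apart at this place. BRIX1 held a further dRfxCas13d site with EZH2g1 at 34924803 to 34924958, and 111 nt of it were shared with a dPspCas13b site with EZH2g2 at 34924791 to 34924913. That stretch was thus listed for different proteins with different EZH2 guides, 1524 nt or more on the 3′ side of the paired sites.

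DYNLT1, a light chain of the dynein motor, lies on the minus strand of chromosome 6, from 158636474 to 158644743, and is the shortest of the 10 genes at 8270 nt. It held the most dRfxCas13d sites with EZH2g1, 4 against 1 or 2 in each of the other genes. The site nested around the dPspCas13b site of 158637789 to 158637943 ran from 158637738 to 158637960. The other 3, at 158637126 to 158637272, 158636712 to 158636896 and 158636586 to 158636745, followed on the 3′ side within the last 2000 nt and had no dPspCas13b counterpart. With EZH2g2, dRfxCas13d was listed at the opposite end of DYNLT1, at 158644664 to 158644807. That site covered the annotated start of the gene at 158644743, with 80 nt downstream of it and 64 nt upstream.

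The DYNLT1 start is shown because it is the only Cas13 site of the 10 genes that reaches a RefSeq promoter window, which runs from 250 nt before to 50 nt after a gene's start. The sequence is RefSeq, GRCh38.p14, chr6:158644714-158644807, minus strand, with the 64 upstream bases in lower case and the first 30 annotated transcript bases in capitals.
DYNLT1 start under the dRfxCas13d EZH2g2 site: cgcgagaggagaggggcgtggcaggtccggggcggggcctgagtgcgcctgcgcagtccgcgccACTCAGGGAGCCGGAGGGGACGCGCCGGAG
These 94 bases are 78.7% G or C. They leave out the part of the 144-nt site that lies farther into the transcript. The G or C share of other gene starts was not computed. A PTBP1 cluster of the 10000000-cell list, at 158644735 to 158644744, also lay over this start. The window table gives no sequence for the paired EZH2g1 sites, which lie far from the gene starts.

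Counted over lists, dRfxCas13d with EZH2g1 had 17 sites in the 10 genes, 7 more than the 10 paired ones, and the 7 lay in 5 of the genes. dPspCas13b with EZH2g1 had 10, exactly 1 per gene. With EZH2g2, dPspCas13b had 1 site in 1 of the genes and dRfxCas13d had 2 sites in 2. Without guide, dPspCas13b had 14 sites in 4 of the genes and dRfxCas13d had 8 sites in 2. That every gene held at least 1 site of each EZH2g1 list follows from the choice of genes. The shares over the 15844 protein-coding genes of known strand were 0.29% for dPspCas13b and 4.46% for dRfxCas13d. The choice did not require the 7 further dRfxCas13d sites, and merging overlapping sites left 14 of the 17. The share of genes with more than 1 dRfxCas13d site was not computed, so the 7 cannot be read as a trait of the 10 genes. Of the 706 genes with a dRfxCas13d site, 5.1% held a dPspCas13b site.

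For the lists that did not enter the choice, the shares of those 15844 genes with a site were 2.71% for dPspCas13b with EZH2g2, 5.76% for dRfxCas13d with EZH2g2, 10.8% for dPspCas13b without guide and 10.4% for dRfxCas13d without guide. Among the 706 of these genes that held a dRfxCas13d site with EZH2g1, the shares in the same order were 5.81%, 12.6%, 30.2% and 25.5%. Among the 9881 genes with a PTBP1 cluster at 10000000 cells they were 4.17%, 8.9%, 17.2% and 16.3%. These shares stand beside the counts of 1, 2, 4 and 2 of 10. With 10 genes, a count of 4 has an exact binomial (Clopper-Pearson) 95% interval of 12.2% to 73.8%, which covers counting error only.

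At the paired sites themselves, taken as the union of both EZH2g1 sites, other Cas13 lists were nearly absent. Both EZH2g2 lists and the dRfxCas13d list without guide overlapped 0 of 10, which allows a share of up to 30%, and dPspCas13b without guide overlapped 1 of 10, in ITM2B. Over all 966 dRfxCas13d sites with EZH2g1, these lists overlapped 0.725% (dPspCas13b with EZH2g2), 1.24% (dRfxCas13d with EZH2g2), 3.83% (dPspCas13b without guide) and 2.28% (dRfxCas13d without guide). Over all 59 dPspCas13b sites the shares in the same order were 1.69%, 3.39%, 1.69% and 3.39%. Over the unions of the 28 other shared sites they were 0.0%, 3.57%, 3.57% and 3.57%. The whole lists include the 10 genes and the target EZH2, and their single sites are narrower than the unions. The 1 of 59 dPspCas13b sites that was met by dPspCas13b with EZH2g2 lies in EZH2. As far as 10 sites can show, the 10 are like the whole lists and the other shared sites in this respect. EZH2 differed, since 1 of its 2 shared stretches, from 148818032 to 148818173 in the dPspCas13b list, was also listed with EZH2g2 for both proteins.

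Along the genes the paired sites lay towards the 3′ end without reaching it. The midpoint of the shared stretch stood at 46.6% of the gene span in YLPM1 and at 67.8% or more in the other 9 genes, with a maximum of 95.6% in SEC63 and a median of 79.3%. In nt, the distance to the annotated 3′ end ran from 1392 in DYNLT1 to 42636.5 in KDM6A, with a median of 13128.5. BRIX1 at 2841.5 and SEC63 at 3960.5 were the next closest, and ITM2B followed at 8774.5. SH3GLB1 at 13073.5, CTNNB1 at 13183.5 and UBE2D2 at 13522.5 had nearly the same distance despite spans of 43609, 40939 and 102195 nt. EPC2 at 16350 and YLPM1 at 39543.5 were farther.

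Only 1 of the 10 paired dRfxCas13d sites, that of DYNLT1, lay within 2000 nt of the 3′ end (10%, exact binomial 95% interval 0.253% to 44.5%). Of the 794 other dRfxCas13d sites with EZH2g1 in protein-coding genes of known strand, 203 did (25.6%, 22.6% to 28.8%), and of the 39 other dPspCas13b sites 13 did (33.3%, 19.1% to 50.2%). The intervals overlap, but the difference was not tested and the 10 sites were chosen rather than sampled. A lower share at the paired sites can therefore not be claimed. The 794 include the 7 further dRfxCas13d sites of the 10 genes, and both sets of other sites include EZH2. Among the 7, those of DYNLT1 at 725, 330 and 191.5 nt and that of BRIX1 at 1115.5 nt also lay within 2000 nt. The median distance of the other sites was 6231 nt for dRfxCas13d and 6259 nt for dPspCas13b. By relative position the sets were close, with a median of 79.3% of the span for the paired sites, 76.1% for the other dRfxCas13d sites and 79.9% for the other dPspCas13b sites. The 10 genes had a median length of 58806 nt, against 38168.5 nt for the genes of the other dRfxCas13d sites, counted once per site, and the part of gene length in the distance was not tested. Exons, introns and untranslated regions were not parted here.

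**Figure D2:**
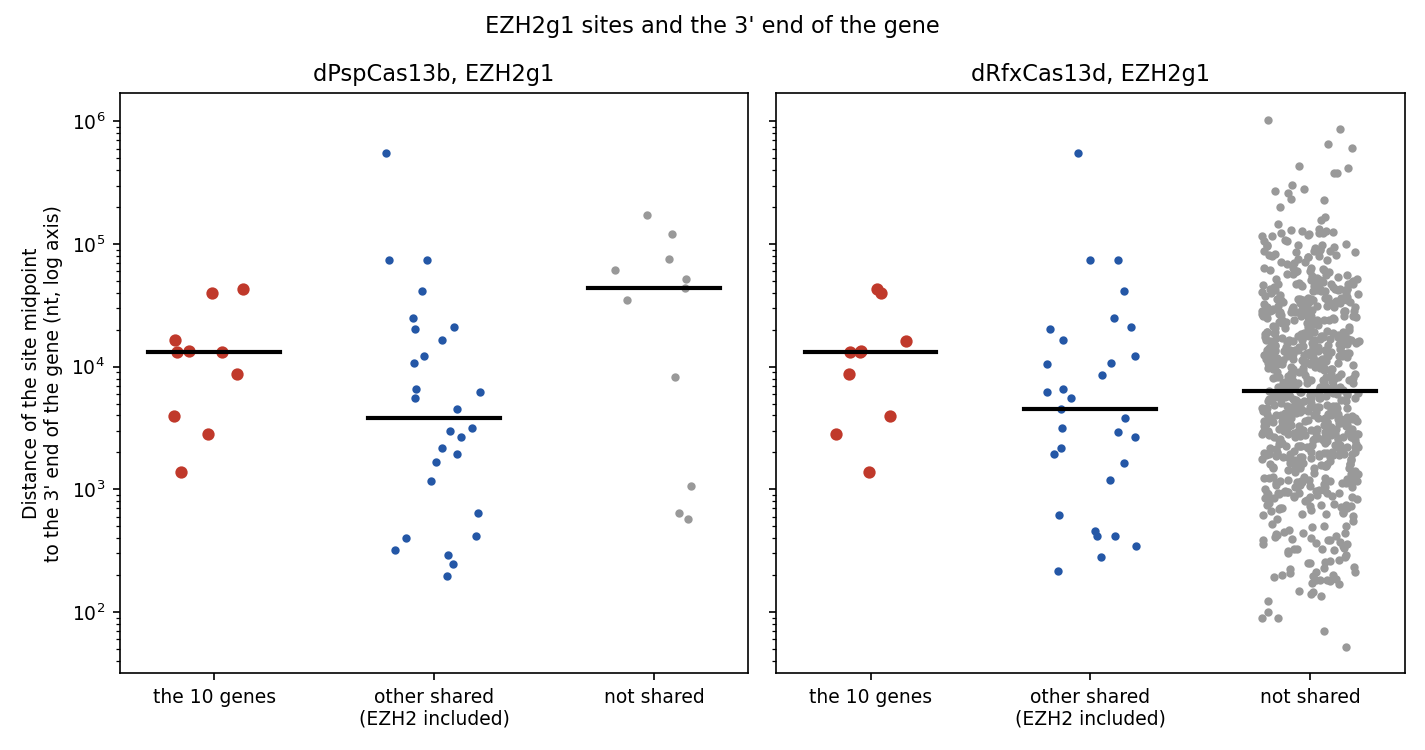
Distance of each EZH2g1 site midpoint to the 3′ end of its gene, in nt on a log axis, for dPspCas13b (left panel) and dRfxCas13d (right panel), with a black line at the median. Each panel shows the paired sites of the 10 genes (1392 to 42636.5 nt for dPspCas13b), then other sites shared by both proteins, then sites of that protein alone.

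The PTBP1 and RBFOX2 lists show which of these transcripts were captured with unrelated proteins. PTBP1 is a splicing repressor that binds pyrimidine-rich stretches, mostly in introns, and RBFOX2 is another splicing regulator. All 10 genes held PTBP1 clusters at 10000, 100000 and 10000000 cells, where 48.4%, 58.3% and 62.4% of the 15844 genes held 1, and all but BRIX1 did at 1000 cells (32.7%, and 66.7% of the genes with a dRfxCas13d EZH2g1 site). Among genes with a dRfxCas13d EZH2g1 site the share at 10000000 cells was 98.6%, so 10 of 10 is near that background. RBFOX2 clusters were found in 7 of the 10, not in ITM2B, SH3GLB1 or BRIX1, beside 41.0% of all these genes and 79.3% of those with a dRfxCas13d EZH2g1 site.

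KDM6A, the longest of the 10 genes, held 7, 70, 336 and 485 PTBP1 clusters from 1000 to 10000000 cells and 86 RBFOX2 clusters. CTNNB1 held 10, 101, 204 and 227, with 94 of RBFOX2. UBE2D2 held 7, 89, 150 and 173, with 44 of RBFOX2. These 3 genes thus led at 1000 cells together with SEC63 and DYNLT1, which held 6 each there. SEC63 had 78, 208 and 196 at the larger inputs and 26 of RBFOX2. EPC2 held 1, 49, 168 and 240, with 20 of RBFOX2, and YLPM1 held 1, 59, 192 and 237, with 80. So EPC2 and YLPM1, near KDM6A in order at the largest input, held 1 cluster each at the smallest.

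The remaining genes had fewer clusters. ITM2B held 1, 6, 28 and 67 and SH3GLB1 held 2, 2, 67 and 86 along the same inputs. DYNLT1 held 6, 17, 14 and 24, with 8 of RBFOX2, and BRIX1 held 0, 5, 2 and 7. DYNLT1 and BRIX1 had more clusters at 10000 than at 100000 cells, and SEC63 more at 100000 than at 10000000, while the other 7 genes held at least as many at each larger input as at the one before.

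**Figure D3:**
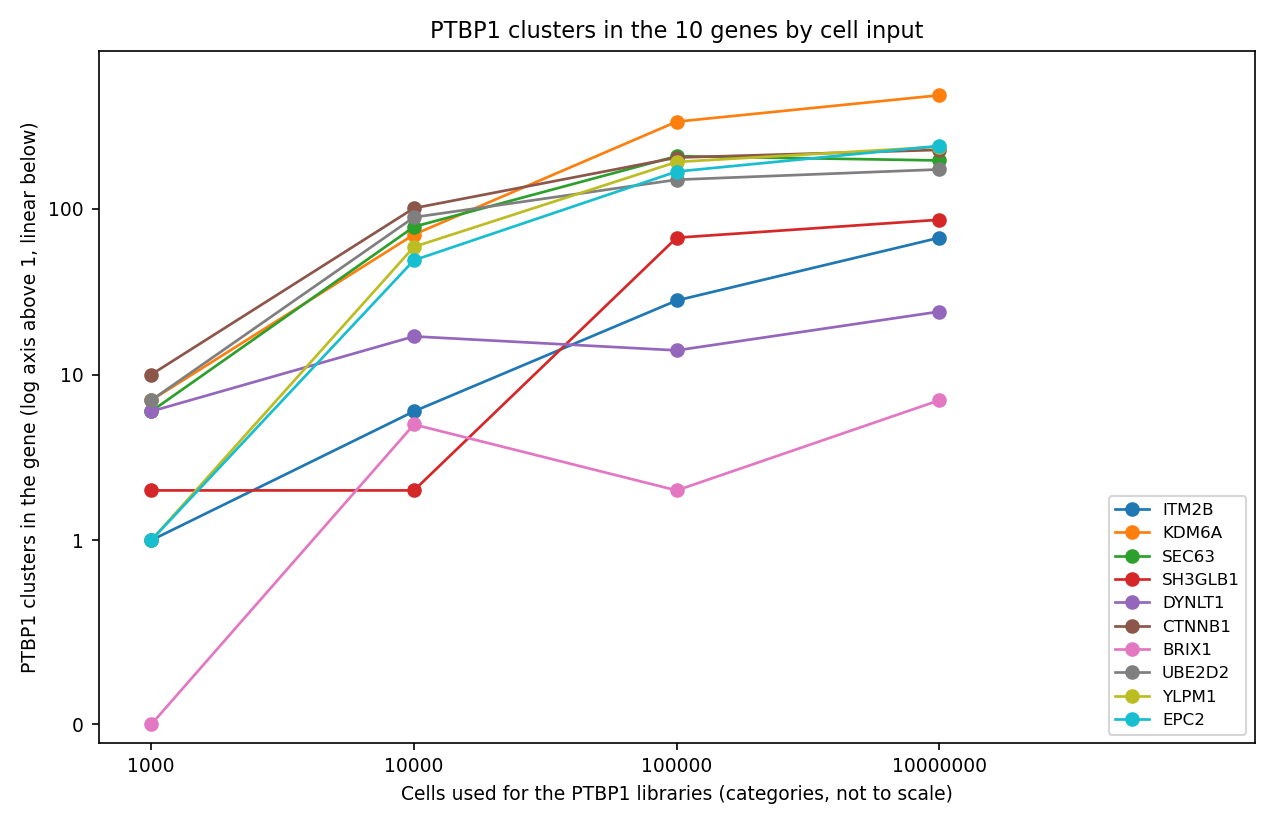
PTBP1 clusters in each of the 10 genes (y axis, log above 1) for the lists from 1000, 10000, 100000 and 10000000 cells (x axis, categories). KDM6A reaches 485 clusters at the largest input, BRIX1 stays at 7 or fewer, and SH3GLB1 keeps 2 clusters at both 1000 and 10000 cells.

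Per length, CTNNB1 was the most densely covered with 55.4 PTBP1 clusters per 10 kb at 10000000 cells, followed by YLPM1 with 32.0 and DYNLT1 with 29.0. BRIX1 had the lowest density at 6.81. The remaining 6 genes lay between 16.8 and 21.7 clusters per 10 kb. The median of the 10 genes was 20.0, close to 18.4 in the 706 genes with a dRfxCas13d EZH2g1 site and above 11.5 in the 9881 protein-coding genes with a PTBP1 cluster. For RBFOX2, CTNNB1 again had the highest density, 22.96 per 10 kb, followed by YLPM1 with 10.8 and DYNLT1 with 9.67. Clusters of the SpyCatcher lists were found in 7 and 5 of the 10 genes for version 1.0 at 20 and 40 µg, where 24.1% and 25.1% of the 15844 genes held 1, and in 7 and 7 for version 2.0, where 28.4% and 29.6% did. For these lists the share among the 706 genes with a dRfxCas13d EZH2g1 site was not computed, so the counts cannot be read as a trait of the 10 genes. The SpyCatcher lists held between 35 and 67 clusters in the 10 genes. None of these 4 lists had a cluster in BRIX1, and none but that of version 2.0 at 40 µg, with 2, had one in DYNLT1.

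At the paired sites themselves, PTBP1 clusters from 10000000 cells overlapped 4 of the 10 unions, in ITM2B, DYNLT1, UBE2D2 and EPC2, with 10 of the 1742 clusters that the genes held. All dRfxCas13d EZH2g1 sites together were overlapped in 26.2% of cases, all dPspCas13b EZH2g1 sites in 22.0% and the unions of the 28 other shared sites in 21.4%. The whole lists include the 10 genes and EZH2, and their single sites are narrower (median 169 and 128 nt) than the unions of the 10 genes (217.5 nt). The unions of the other shared sites are closer in width (207 nt). These shares lie within the interval of 4 of 10 (12.2% to 73.8%), so no difference can be claimed. ITM2B held 5 of the 10 clusters, from 48261491 to 48261746, and 3 of them fell within its no-guide dPspCas13b site. EPC2 held 3, from 148771125 to 148771210, and DYNLT1 and UBE2D2 held 1 each.

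With 100000 cells ITM2B had a PTBP1 cluster at the paired sites (1 of 10, beside 14.4% of all dRfxCas13d EZH2g1 sites, 1.69% of all dPspCas13b EZH2g1 sites and 7.14% of the other shared sites). That count was 0 when at least 50% of the cluster or site had to be covered or only the shared stretch was used, and 2 with 100 nt added on each side. The lists from 10000 and 1000 cells (background 11.0% and 1.97%), the RBFOX2 list (5.28%) and the 4 SpyCatcher lists (1.04% to 1.55%) overlapped 0 of 10. For the dPspCas13b EZH2g1 list those shares were 5.08% and 1.69% for PTBP1 from 10000 and 1000 cells, 5.08% for RBFOX2 and 0.0% to 1.69% for SpyCatcher, and for the other shared sites 10.7%, 7.14%, 7.14% and 0.0% to 7.14%. With 100 nt added on each side, PTBP1 clusters from 10000 and 1000 cells met 2 and 1 of the 10, while RBFOX2 and SpyCatcher stayed at 0. In the other 6 genes the nearest PTBP1 cluster of the 10000000-cell list lay 248 nt away in YLPM1, 390 nt in SEC63, 415 nt in KDM6A, 978 nt in CTNNB1, 1812 nt in SH3GLB1 and 2292 nt in BRIX1. The nearest RBFOX2 cluster lay between 537 nt (CTNNB1) and 2984 nt (SEC63) from the paired sites in the 7 genes that held any.

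Of 17 paralogs and partner genes of the 10 genes or of EZH2, none held a dPspCas13b site with EZH2g1 (0.29% of the 15844 genes did). A dRfxCas13d site with EZH2g1 was found in 2 of the 17 (beside 4.46%), the dynein light chain gene DYNLT3 and the translocon gene SEC61A1, with 1 each. With EZH2g2, dPspCas13b had 1 site each in ITM2C and CTNND1, 2 of the 17 beside 2.71%, and dRfxCas13d had none, beside 5.76%. Without guide, 7 of the 17 held a dPspCas13b site, beside 10.8%, namely ITM2A, SEC62, SEC61A1, SEC61B, DYNLT3, DYNLT2B and UBE2D3. Of these SEC62 held the most, 5. A dRfxCas13d site without guide was found in 6, beside 10.4%, namely ITM2C, SEC62, SEC61B, JUP, CTNNA1 and UBE2D3, with 1 or 2 sites each. The strand of DYNLT2B and CTNND1 was not known, so their sites were counted on either strand, unlike those behind these shares. The remaining 6 of the 17 held no Cas13 site in any of the 6 lists, although all 17 held PTBP1 clusters at 10000000 cells. Among the 9881 genes with such a cluster, a closer comparison for the 17, the shares were higher. With EZH2g2 they were 4.17% for dPspCas13b and 8.9% for dRfxCas13d, and without guide 17.2% and 16.3%. A difference was not tested.

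The lines of the lists follow no genome order, and what their order means is not stated in the sources used here. In the dPspCas13b list the sites of the 10 genes stood at places 3 (SEC63) to 39 (CTNNB1) of 59, with UBE2D2 at 4, KDM6A at 6 and SH3GLB1 at 7. The dRfxCas13d sites stood at places 3 (SH3GLB1) to 497 (YLPM1) of 966, and 7 of the 10 were among the first 100. UBE2D2, KDM6A and YLPM1 stood late there, at 398, 259 and 497, although they held places 4, 6 and 20 in the dPspCas13b list. Sites in the first part of either list were wider, with a median of 139 nt against 126 nt for dPspCas13b and 179 nt against 162 nt for dRfxCas13d when each list is split at its middle, and the 10 genes were chosen for wide overlap.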

How the data were processed

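Each list used here, as the authors deposited it, gives chromosome, start, end and strand for 1 group, while the name and score fields are empty dots. Per the submitters' processing notes, Trim Galore 0.0.6, STAR 2.7.9a and hg38 were used. For the site caller, its thresholds and any pooling of libraries, the answer is "not given in the sources used here". Of 17 lists 15 were used. The others are not reported here. The uncrosslinked and gNT groups were not analysed here.

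Starts were counted from 1. A site belonged to a gene when its midpoint lay in the RefSeq span (GRCh38.p14, the assembly of hg38) on the gene's strand. Strand came from the RefSeq promoter table, and for ITM2B, absent there, from its PTBP1 clusters, all on the plus strand. An overlap needed 1 common nt on the same strand. The member genes, the paralogs and the comparisons were chosen with earlier results of these data known. All 10 genes are named, EZH2 as the target, listed paralogs that hold a Cas13 site and at most 3 other shared genes. Intervals are Clopper-Pearson at 95%, and the limit for 0 is 3 counts of the total. Python 3.11.15, numpy 2.4.6, pandas 2.3.3 and scipy 1.17.1 were used. The overlap search, tested on simulated data with 2000 sites, gave 0 differing answers in 300 queries.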

Additional observations from a re-analysis of the deposited data

How the results depend on the processing

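The count of 10 genes with overlapping EZH2g1 sites stayed at 10 when at least 50% of the narrower or of both sites had to be covered, when strand was ignored and when any overlap with the gene span was enough. The genes were chosen by this overlap and all 10 pairs are nested, so only 50% cover of both sites could have lowered the count. The 1 paired site touched by another Cas13 list, in ITM2B, fell to 0 when at least 50% of the narrower site had to be covered and to 0 when only the stretch both proteins share was used, because the no-guide site lies outside that stretch. It stayed at 1 without strand and with 100 nt added on each side. The 1 site met by PTBP1 clusters from 100000 cells, also in ITM2B, became 0, 0 and 2 under 50% cover, the shared stretch and 100 nt added. With 100 nt added, the counts of 0 for PTBP1 from 10000 and 1000 cells became 2 and 1. PTBP1 clusters from 10000000 cells met 4 paired sites under every alternative run. The median distance to the 3′ end was 13128.5 nt from dPspCas13b midpoints and 13130 nt from dRfxCas13d midpoints. The 52 Cas13 sites in the 10 genes became 43 after merging, and those of dPspCas13b without guide fell to 8, against 14 as deposited, with the whole change in CTNNB1. Of 110 values recomputed, 100 kept within 1.5 times of the reported one, including the overlap count that the choice of genes largely fixed. No paired analysis was possible because each group has 1 deposited list and none for single libraries, and for the same reason no library could be left out. Site sequence was not used, and depth is unknown, so a place missing from a list may be unbound or unsampled.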
